A study of Mus musculus with 8 samples.

Results

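The nuclear genes of oxidative phosphorylation were described across the cell classes of the mouse cortex at embryonic day 16.5. Genes were taken by symbol: Nduf (complex I), Sdha to Sdhd (complex II), Uqcr (complex III), Cox4 to Cox8 (complex IV) and Atp5 (complex V). Of 27998 rows in the gene list 92 symbols matched, and 88 of them had at least 50 unique molecular identifiers (UMIs, counts of captured RNA molecules) over the cells of both matrices. The other 4, all complex IV isoforms, were Cox8b and Cox8c with 0 UMIs, Cox6a2 with 9 and Cox7b2 with 14. Of the members 85 lie on autosomes and 3 on X.

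Cortices came from CD1 embryos. One group was made up of wild type littermates, and the labels used here do not say whether these received a plasmid. The other had a plasmid for ShhN, the signalling fragment of sonic hedgehog, electroporated into the ventricular progenitors in utero at E13.5; electroporation is known to reach only part of the cells, so cells without plasmid can be among those of the ShhN library. Each group has 4 samples, but each matrix carries 1 barcode suffix and the cells could not be traced to a sample. Each group was therefore 1 library, no difference has a replicate check, and no test was made. Every interval below is an exact 95% interval for counting error only.

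Oxidative phosphorylation takes place at the inner mitochondrial membrane. Complexes I and II pass electrons from NADH and succinate to ubiquinone, complex III passes them on to cytochrome c, and complex IV passes them to oxygen. Complexes I, III and IV pump protons, and complex V, the ATP synthase, lets them flow back to make ATP. Most subunits are made from nuclear genes and imported, while a small set, among them the catalytic core of complex IV, is made from mitochondrial DNA. Radial glia, the stem cells of the developing cortex, are known for a glycolytic metabolism, and neurons for a reliance on oxidative phosphorylation.

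Complex I supplied 38 members, which held 32.6% of all member UMIs, and its assembly factors (Ndufaf) a further 7 with 1.13%. Complex II supplied 4 members (1.84%), complex III 8 (10.0%), complex IV 14 of 18 matching symbols (26.7%) and complex V 17 (27.7%). Ndufa4 and Ndufa4l2 were counted with complex I by symbol, although the Ndufa4 protein is now placed in complex IV. The 17 of complex V take in Atp5s and Atp5sl by symbol alone, and whether these are subunits of it was not checked. The counts are of 3′ tags, so levels are compared between classes for 1 gene and not between genes.

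After removal of doublets 6953 wild type and 8068 ShhN cells remained, with a median of 6275 and 6683.5 UMIs per cell; 79 barcodes occurred in both libraries, where 81.6 are given by chance. Cells were given a class from fixed markers, none of which is a member, and "-like" is left out of the class names from here on. The lead marker was Fabp7 in radial glia, Eomes in intermediate progenitors and Pou3f2 in upper layer neurons. A class was given where its marker score led the next class by at least 0.25. Of upper layer neurons 60.4% in wild type and 65.3% in ShhN had a lead under 0.5, against 10.7% and 20.6% of radial glia. Of ShhN upper layer neurons 20.5% lay in a Leiden cluster (0) that got no class name. The 15 radial glia markers summed to 12817 CPM (a sum of UMIs scaled to a common class total) in wild type and 8849 in ShhN radial glia, against 570 and 499 in upper layer neurons. Excitatory neuron markers were at 315 and 234 CPM in radial glia against 3057 and 3079 in upper layer neurons. Globin UMIs stood at 14894 CPM in wild type and 3684 CPM in ShhN radial glia. Of the cells 2615 in wild type and 3449 in ShhN stayed without a class, mostly because 2 classes scored close to each other.

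The module's share of all UMIs varied little from progenitors to neurons. In the wild type library it was 2.95% (2.92 to 2.98) in 169 radial glia, 2.90% in 460 intermediate progenitors, 2.54% in 894 migrating neurons, 2.53% (2.52 to 2.54) in 964 upper layer neurons, 2.48% in 921 deep layer neurons and 2.71% in 791 GABAergic interneurons. In the ShhN library the same classes were at 2.98% (2.95 to 3.0) in 320 cells, 2.91% in 749, 2.79% in 1012, 2.71% (2.70 to 2.73) in 942, 2.59% in 936 and 2.95% in 495. Radial glia were thus highest and deep layer neurons lowest of the 6 classes in both libraries. In ShhN the interval of radial glia overlapped that of GABAergic interneurons, 2.93 to 2.97. The intervals of radial glia and upper layer neurons did not overlap in either library. Rarer classes lay in or near the range of the 6 classes in wild type, with 2.82% in 76 Cajal-Retzius cells, 2.93% in 11 glial progenitors, 3.21% in 14 endothelial and 2.88% in 31 mural cells. In ShhN they were at 3.22% in 31, 2.98% in 94, 2.62% in 19 and 3.75% in 15 cells, and the ShhN endothelial cells carried 51812 CPM of globin UMIs against 1036 in wild type.

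**Figure D1:**
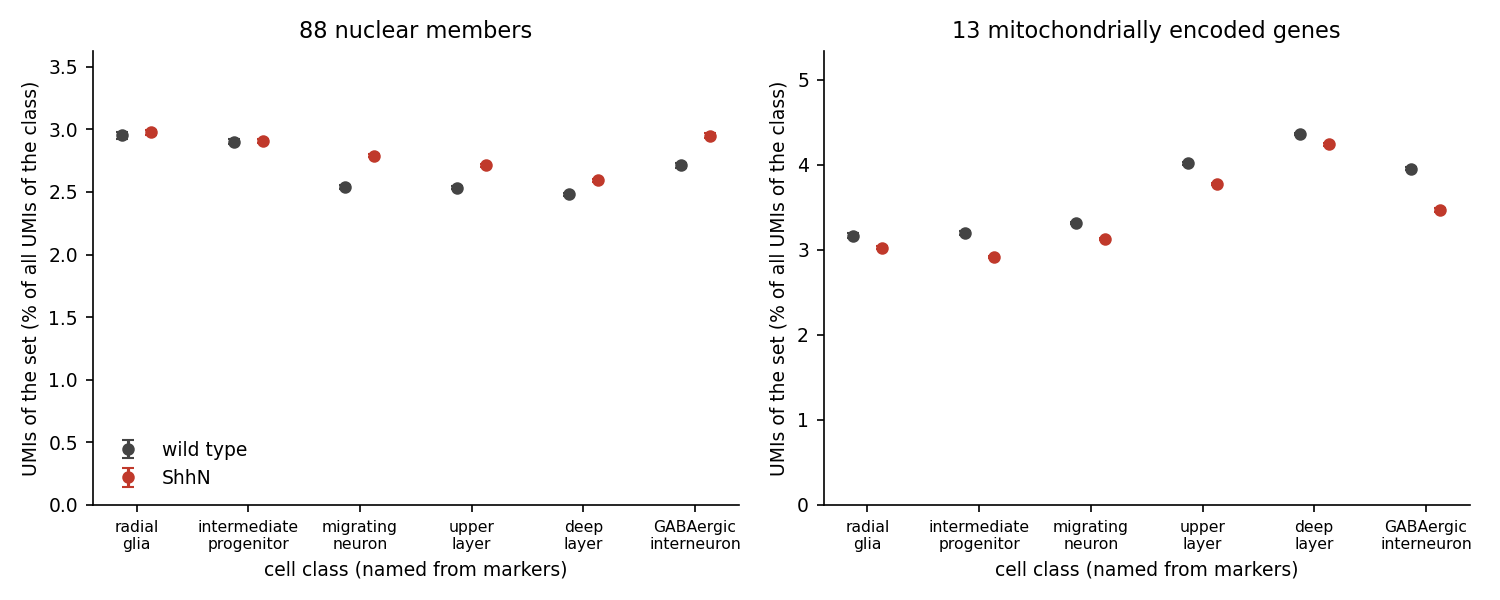
Share of all UMIs of a cell class (percent, vertical axis) held by the 88 nuclear members (first panel) and by the 13 mitochondrially encoded subunits (second panel), for 6 cell classes and both libraries, with exact 95% intervals for counting error. The nuclear share is highest in radial glia, at 2.95% and 2.98%, while the mitochondrially encoded share is highest in deep layer neurons, at 4.36% and 4.24%. For the nuclear share in ShhN the intervals of radial glia and GABAergic interneurons overlap.

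The 13 subunits made from mitochondrial DNA had another order. They took 3.17% of UMIs in wild type radial glia, 3.20% in intermediate progenitors, 3.32% in migrating neurons, 4.02% in upper layer neurons, 4.36% in deep layer neurons and 3.96% in GABAergic interneurons. In the ShhN library these shares were 3.03%, 2.92%, 3.13%, 3.78%, 4.24% and 3.47%. Cells above 10% mitochondrial UMIs had been left out, which caps this share in every class. Free RNA, read from barcodes of 1 to 50 UMIs, held more of these subunits than any of the 6 classes, 11.3% in wild type and 8.67% in ShhN, and its part in the order was not tested. RNAs of cytoplasmic ribosomal proteins, a large part of each library, were higher in radial glia than in upper layer neurons, like the nuclear members. They were at 21.0% against 16.4% in wild type and at 23.2% against 18.0% in ShhN. Among the neurons their order was not that of the members. Deep layer neurons were at 17.7% and 20.1%, above GABAergic interneurons at 15.2% and 17.3%.

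The member share was nearly the same in dividing and other radial glia. Of wild type radial glia 54.4% had at least 2 of 10 division markers; the member share was 2.96% in these 92 cells and 2.93% in the other 77. In the ShhN library 176 dividing radial glia were at 2.96% and 144 others at 3.0%. In wild type intermediate progenitors it was 3.04% in 84 dividing and 2.86% in 376 other cells, and in ShhN 2.91% in each kind.

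Upper layer neurons were compared with radial glia, the cells that give rise to them. Summed over all members the log2 ratio was −0.22 (−0.24 to −0.21) in wild type and −0.13 (−0.15 to −0.12) in ShhN. A member was called where both sums together held at least 50 UMIs, the log2 ratio was at least 0.5 in size and the bound nearest 0 at least 0.25. In wild type 13 of 83 measured members were lower and 1 was higher, while over all genes measured 20.7% were lower and 18.7% higher. In ShhN 11 of 84 were lower and 2 higher, beside 25.4% and 20.6% of all genes. The share of members called lower, 15.7% and 13.1%, was thus no higher than that of all genes, and most members differed by less than the rule asks. The median member stood at −0.21 in wild type and −0.09 in ShhN, where the median gene stood at −0.03 and −0.07. Below 0 lay 69 of 83 and 56 of 84 members, and the sign was not counted over all genes. In ShhN the median member was thus close to the median gene. With TMM scaling, which sets the bulk of genes equal and adds 0.06 to each wild type and 0.09 to each ShhN ratio, the ShhN sum was −0.04 and its split 3 higher and 8 lower; scaled without mitochondrial, ribosomal and globin UMIs the ShhN sum was −0.22. Without dividing cells 5 members were lower in wild type and 7 in ShhN.

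**Figure D2:**
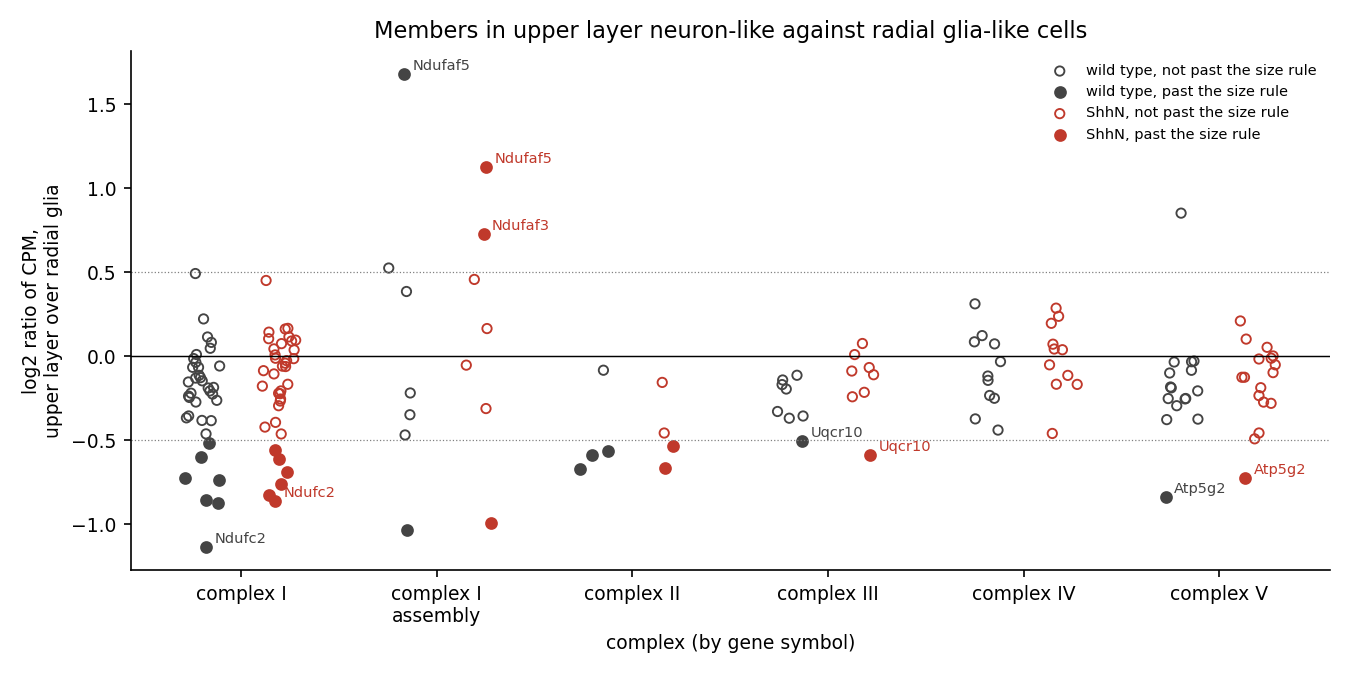
Log2 ratio of upper layer neurons over radial glia (vertical axis) for each measured member, grouped by complex, in both libraries; filled points passed the size rule, open points did not, and dotted lines mark 0.5 and −0.5. Most points lie between the lines, and the assembly factor Ndufaf5 is the highest in both libraries, at 1.68 and 1.12.

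Of the members called lower, 10 were shared by the 13 of wild type and the 11 of ShhN: Ndufc2, Ndufa12, Ndufa2, Ndufs8, Ndufb11, Ndufaf1, Sdha, Sdhc, Uqcr10 and Atp5g2. Only Ndufaf5 was called higher in both. The signs were the same for 67 of 83 members. Overlap and signs were not counted over all genes, so this agreement is no result about the members.

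Complex I, the entry point for electrons from NADH, had a summed log2 ratio of −0.27 (−0.30 to −0.25) in wild type and −0.19 (−0.21 to −0.17) in ShhN, with 7 and 6 of 37 measured members lower and 0 higher. The shares of all genes called lower, 20.7% and 25.4%, stand beside these and the counts of the other complexes below, and complex I was no higher than them. The lowest member was Ndufc2, an accessory subunit of the membrane arm (GRCm38 chromosome 7, 97400003 to 97407802, plus strand). Along radial glia, intermediate progenitors, migrating, upper layer and deep layer neurons it stood at 688, 606, 353, 313 and 319 CPM in wild type and at 598, 507, 396, 329 and 311 CPM in ShhN. In wild type the widest gap between neighbouring classes thus lay between intermediate progenitors and migrating neurons, and in ShhN the levels went down in more even steps. The log2 ratio of upper layer neurons over radial glia was −1.13 (−1.24 to −1.02) from 2201 and 983 UMIs in wild type, and −0.87 (−0.96 to −0.77) from 2386 and 1432 UMIs in ShhN.

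Ndufa12, an accessory subunit of the peripheral arm on chromosome 10, was at 346 CPM in radial glia and 191 in upper layer neurons in wild type, a log2 ratio of −0.86 (−1.01 to −0.71). In ShhN the ratio was −0.83 (−0.95 to −0.70). Ndufs8, a core subunit that carries iron-sulphur clusters, had ratios of −0.88 (−1.11 to −0.64) and −0.76 (−0.95 to −0.57). Ndufb11, an X-linked accessory subunit, had ratios of −0.74 (−0.89 to −0.58) and −0.61 (−0.74 to −0.48). Ndufa2, another accessory subunit of the peripheral arm, had ratios of −0.60 (−0.72 to −0.48) and −0.69 (−0.78 to −0.60). Ndufa4, the most counted of this group, was not called, with −0.22 and −0.06.

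The assembly factors of complex I, which build the complex and do not stay in it, went different ways. Their sum was higher in upper layer neurons, with a log2 ratio of 0.20 (0.05 to 0.36) in wild type and 0.19 (0.07 to 0.31) in ShhN, although the median of the 7 was −0.22 in wild type and 0.16 in ShhN. Ndufaf5, which modifies an arginine of the Ndufs7 subunit, lies on chromosome 2 from 140170649 to 140203689. It was at 16.1 CPM in wild type radial glia (23 UMIs), 13.8 in intermediate progenitors, 28.7 in migrating, 51.6 in upper layer (362 UMIs) and 35.5 in deep layer neurons. In ShhN the same classes had 21.7, 18.3, 27.7, 47.4 and 32.4 CPM. Upper layer neurons were the highest class in both libraries, with log2 ratios over radial glia of 1.68 (1.07 to 2.35) and 1.12 (0.70 to 1.57). Ndufaf3, which acts early in assembly, was called higher in ShhN, at 0.73 (0.40 to 1.07), and was at 0.53 (0.15 to 0.92) in wild type. Ndufaf1, which helps to build the membrane arm, was lower on few UMIs, at −1.03 (−1.62 to −0.42) from 84 and 35 UMIs and −0.99 (−1.56 to −0.41) from 67 and 44. Ndufaf2 was at 0.39 and 0.16, and Ndufaf4 at −0.22 and −0.31, none of them past the rule.

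Complex II, succinate dehydrogenase, is the enzyme that the respiratory chain shares with the citric acid cycle and is wholly nuclear. Its sum was the lowest of the complexes, with a log2 ratio of −0.34 (−0.45 to −0.23) in wild type and −0.36 (−0.45 to −0.27) in ShhN; the interval overlapped those of complexes I, III and V in wild type and none of them in ShhN. Sdha, the flavoprotein that oxidises succinate, ran through the 5 excitatory classes in the order above at 114, 102, 91.1, 75.8 and 61.3 CPM in wild type and 120, 101, 92.1, 75.3 and 59.2 in ShhN. Its order of classes was the same in both libraries, and its ratio of upper layer neurons over radial glia was −0.59 (−0.85 to −0.33) and −0.67 (−0.88 to −0.45). Sdhc, a membrane anchor, was at −0.57 and −0.53. The other anchor, Sdhd, was called in wild type at −0.67 (−0.93 to −0.41) and missed the rule in ShhN at −0.46 (−0.68 to −0.23). Sdhb, the iron-sulphur subunit and the most counted of the 4, was not called, with −0.08 and −0.16.

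Complex III had 1 of 8 members lower in each library and a summed log2 ratio of −0.29 (−0.33 to −0.24) in wild type and −0.15 (−0.19 to −0.11) in ShhN. The member called was Uqcr10, a small subunit, with −0.51 (−0.64 to −0.37) and −0.59 (−0.70 to −0.48). Uqcrh, the hinge protein near cytochrome c, was at −0.36 in wild type and −0.09 in ShhN; Uqcrq was at −0.17 and 0.01, and Uqcr11 at −0.20 and −0.07.

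Complex IV, cytochrome c oxidase, differed least, with 0 of 11 measured members called in either library. Its summed level was 6650 CPM in upper layer neurons and 7198 in radial glia in wild type, a log2 ratio of −0.11 (−0.15 to −0.08). In ShhN it was 7280 against 7404 CPM, a ratio of −0.02 (−0.05 to 0.00), which the TMM shift takes above 0. Cox4i1, the ubiquitous form of the regulatory subunit 4, kept between 1020 and 1209 CPM over the 6 wild type classes and between 1121 and 1216 in ShhN. Cox7c was at −0.37 and −0.17 and Cox6c at −0.25 and −0.17.

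Complex V had 1 member lower in each library, Atp5g2, with a summed log2 ratio of −0.24 (−0.27 to −0.21) in wild type and −0.16 (−0.18 to −0.13) in ShhN. Atp5b, the catalytic beta subunit, was at −0.21 and −0.10, Atp5l at −0.25 and 0.05, and Atp5e, part of the central stalk, at −0.37 and −0.27.

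**Figure D3:**
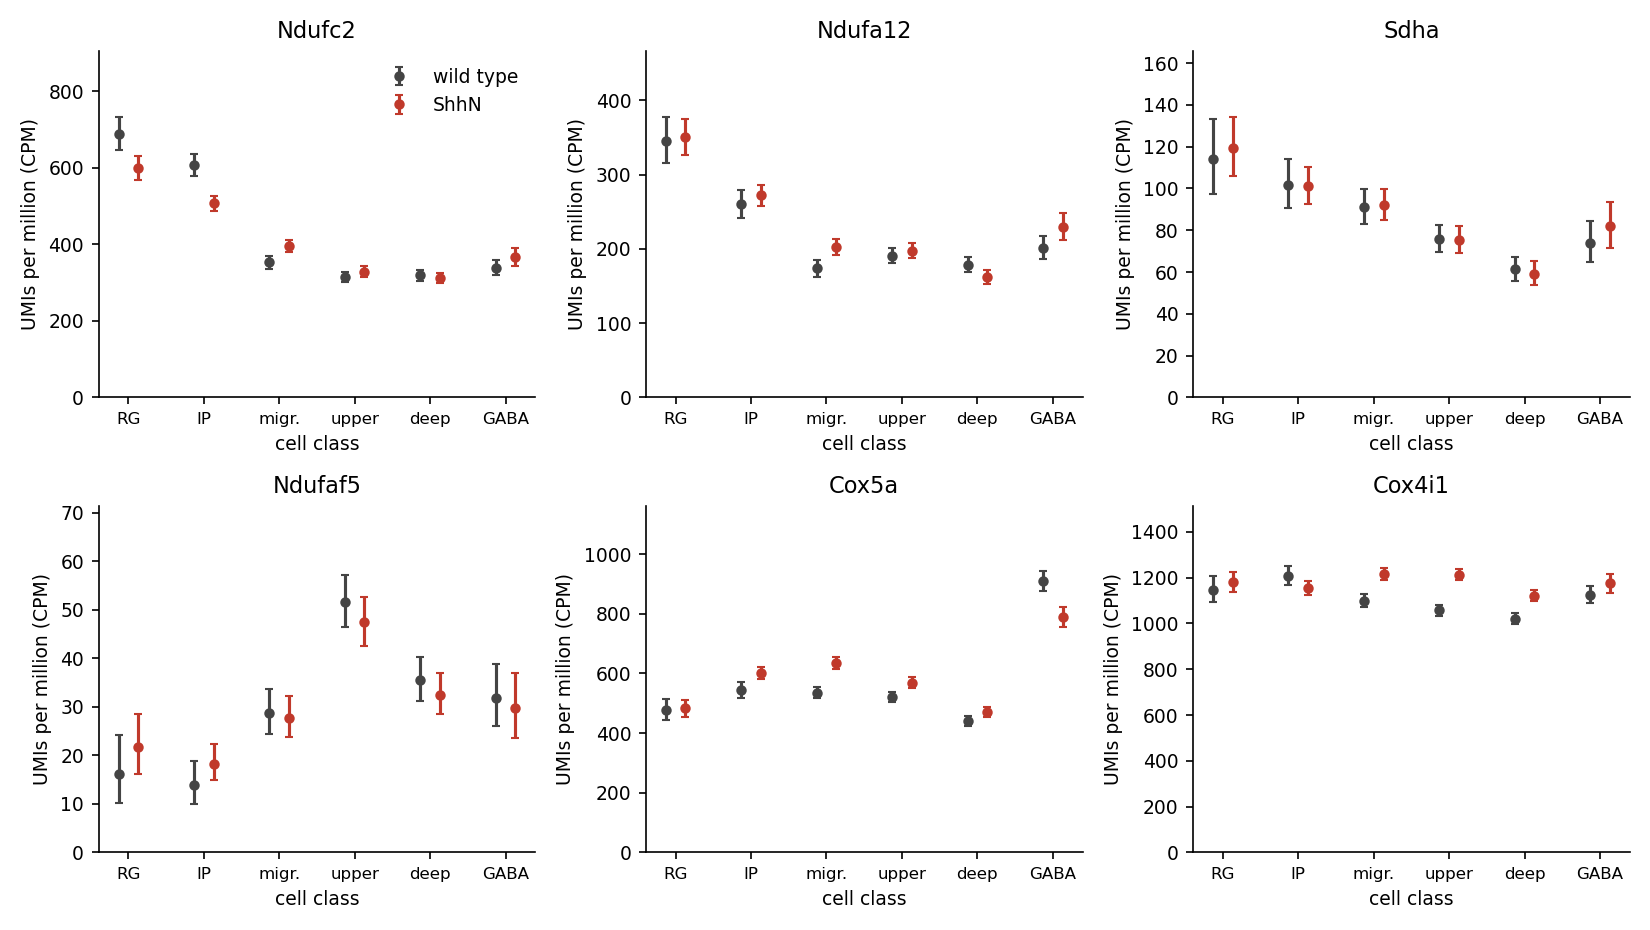
Level in CPM (vertical axes, each from 0) of Ndufc2, Ndufa12, Sdha, Ndufaf5, Cox5a and Cox4i1 in radial glia (RG), intermediate progenitors (IP), migrating (migr.), upper and deep layer neurons and GABAergic interneurons (GABA) of both libraries, with exact 95% Poisson intervals. Ndufc2 is highest in radial glia (688 and 598 CPM), Ndufaf5 in upper layer neurons (51.6 and 47.4 CPM) and Cox5a in GABAergic interneurons (909 and 789 CPM), while Cox4i1 is nearly level. The 6 genes were chosen for the plot after their values were seen.

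Subunit c of the ATP synthase, which forms the rotating ring in the membrane, is made from 3 genes, Atp5g1, Atp5g2 and Atp5g3. Their mature proteins are the same and their targeting peptides differ, so the genes differ in where and how much they are transcribed more than in what they make. The bases before the start of each are shown because the shares of Atp5g1 and Atp5g2 in subunit c UMIs differed by class, as given below. The bases before the start of Sdha are shown because they hold the NRF1 motif most often among the members described here. All are RefSeq windows of build GRCm38.p6, from 250 bases before the start to the last base before it. They run 5′ to 3′ on the gene's strand, and all 4 genes are on the minus strand. Capitals mark the NRF1 motif or the ERR letters TCAAGGTCA on either strand.
Atp5g1, chr11:96075632-96075881: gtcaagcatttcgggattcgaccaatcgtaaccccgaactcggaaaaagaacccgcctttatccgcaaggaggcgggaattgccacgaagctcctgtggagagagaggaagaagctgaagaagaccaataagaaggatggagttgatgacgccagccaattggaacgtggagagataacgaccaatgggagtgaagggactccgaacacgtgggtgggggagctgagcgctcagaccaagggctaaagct
Atp5g2, chr15:102671048-102671297: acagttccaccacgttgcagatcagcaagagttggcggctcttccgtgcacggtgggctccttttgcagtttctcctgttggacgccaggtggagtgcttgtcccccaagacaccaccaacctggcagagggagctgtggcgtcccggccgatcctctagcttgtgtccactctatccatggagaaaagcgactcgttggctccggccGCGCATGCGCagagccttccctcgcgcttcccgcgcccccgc
Atp5g3, chr2:73911327-73911576: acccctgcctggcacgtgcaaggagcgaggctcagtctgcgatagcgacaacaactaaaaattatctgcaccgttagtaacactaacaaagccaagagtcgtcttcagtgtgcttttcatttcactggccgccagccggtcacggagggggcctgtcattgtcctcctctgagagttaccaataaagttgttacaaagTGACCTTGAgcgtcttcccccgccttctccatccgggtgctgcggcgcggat
Sdha, chr13:74350241-74350490: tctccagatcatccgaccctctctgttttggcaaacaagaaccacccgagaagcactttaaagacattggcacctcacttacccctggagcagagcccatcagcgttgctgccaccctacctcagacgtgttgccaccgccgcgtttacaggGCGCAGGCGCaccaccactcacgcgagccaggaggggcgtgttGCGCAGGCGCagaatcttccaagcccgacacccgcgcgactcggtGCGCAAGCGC

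The window of Atp5g2 holds the NRF1 motif once, 42 bases before the start. In GENCODE M21 the gene Atp5g2 runs to base 102672352, so its annotated 5′ end lies upstream of this window. The window of Atp5g1 holds none of the 4 motifs searched. That of Atp5g3 holds the ERR letters, read on the other strand as TGACCTTGA, 52 bases before the start, and the NRF1 motif at base 12 after it. Sdha holds the NRF1 motif 3 times, at 98, 55 and 10 bases before the start. These matches are of letters only.

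The shares of the 3 genes in subunit c UMIs moved from one class to another. Atp5g2 supplied 46.8% (44.6 to 49.0) of them in wild type radial glia, 51.6% in intermediate progenitors, 38.4% in migrating, 34.9% (33.8 to 36.0) in upper layer and 31.7% in deep layer neurons. In ShhN these shares were 46.6%, 49.9%, 41.3%, 36.4% and 34.4%. Atp5g1 went the other way, at 33.1%, 28.3%, 38.0%, 43.2% and 49.4% in wild type and 33.7%, 29.9%, 34.3%, 42.0% and 45.9% in ShhN. Atp5g2 was thus the most counted of the 3 in both progenitor classes and Atp5g1 in upper and deep layer neurons, in both libraries. In level, Atp5g2 was at 638 CPM in radial glia and 357 in upper layer neurons of the wild type library, a log2 ratio of −0.84 (−0.95 to −0.73), and the ratio was −0.73 (−0.82 to −0.64) in ShhN. Atp5g1 was at 451 and 441 CPM, a ratio of −0.03 (−0.16 to 0.09), and at −0.05 (−0.15 to 0.05) in ShhN. Atp5g3 was at −0.29 and −0.23 and was not called. How reads that match several of these genes or their processed copies were counted is not given in the sources used here.

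**Figure D4:**
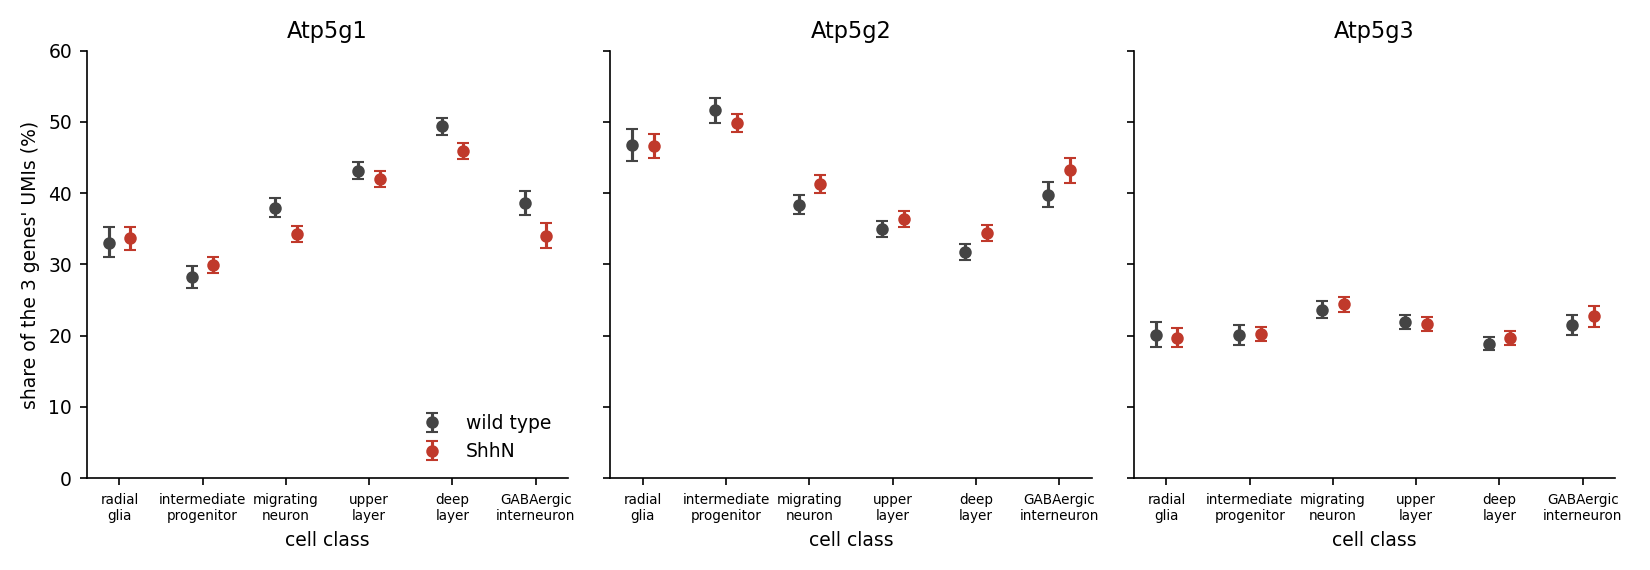
Share (percent, vertical axis) of Atp5g1, Atp5g2 and Atp5g3 in the UMIs of subunit c of the ATP synthase, by cell class and library. Atp5g2 goes from 46.8% in wild type radial glia to 31.7% in deep layer neurons, and Atp5g1 from 33.1% to 49.4%.

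Over all members, 74 of 88 had an entry in the RefSeq promoter table, in windows from 250 bases before to 50 after the start. The NRF1 motif, bound by a regulator of respiratory genes, were in 19 of them (25.7%), against 5.19% of 27025 genes and 11.7% of the 10174 measured genes with an entry. The YY1 letters AANATGGCG were in 11 (14.9%), against 2.76% and 5.91%. The ETS letters CCGGAAGT were in 5 (6.76%), against 4.31% and 9.07%, and the ERR letters in 2 (2.70%), against 0.466% and 0.364%. Both strands were searched. Members with the NRF1 motif had a median log2 ratio of upper layer neurons over radial glia of −0.24 in wild type (19 members) and those without −0.19 (52 members); in ShhN it was −0.22 (19) and −0.10 (53). Of the members named above, Ndufc2, Ndufa12, Ndufs8 and Cox5a held none of the 4 motifs in this window, and Ndufaf5 held the NRF1 motif at base 16 after its start.

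Isoforms known from muscle, testis or low oxygen were scarce. Ndufa4l2, a paralogue of Ndufa4 known to respond to low oxygen, had 263 UMIs over all wild type cells, of which 224 were in 31 mural cells, the contractile cells around vessels. There it made up 81.8% (76.7 to 86.1) of the UMIs of the pair with Ndufa4, at 900 CPM. In ShhN 134 of 183 UMIs were in 15 mural cells, where its share was 89.9% (83.9 to 94.3) and its level 1320 CPM. Radial glia held 0 and 1 UMIs of it. Endothelial markers, led by Igfbp7, summed to 4724 and 3734 CPM in these mural cells beside 7716 and 10462 CPM of mural markers, and their part in the result was not tested.

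Cox4i2, the alternative form of subunit 4, followed the same pattern more weakly, with 85 UMIs and 18.2% (14.8 to 22.0) of subunit 4 UMIs in wild type mural cells and 52 UMIs and 21.5% (16.5 to 27.2) in ShhN. Upper layer neurons held 0 UMIs of it in both libraries and radial glia 12 and 9. Cox6b2, known from testis, had 76 and 147 UMIs over all cells, and in radial glia its share of subunit 6b was 0.956% and 1.65%. Cox7a1, the heart and muscle form, had 117 and 123 UMIs, 0.214% and 0.162% of its trio. The common forms carried nearly all of the rest. Cox6a1 had log2 ratios of upper layer neurons over radial glia of 0.31 and 0.29, Cox6b1 of 0.09 and 0.20, Cox7a2 of 0.07 and 0.07, Cox7a2l of −0.14 and −0.05, and Cox8a of −0.44 and −0.46; none was past the rule.

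Across the 6 main classes the spread of a single member was modest. For 81 members with at least 500 UMIs over these classes, the highest class exceeded the lowest by a median of 1.41-fold in wild type (1.10 to 3.72) and 1.36-fold in ShhN (1.07 to 2.59). The largest fold was that of Ndufaf5 in each library. Radial glia were the highest class for 36 and 27 members, and deep layer neurons the lowest for 31 and 38. Intermediate progenitors were highest for 23 in wild type and 9 in ShhN, where migrating neurons were highest for 14 and GABAergic interneurons for 18. A class was counted as highest or lowest however small its gap. The same was not counted over all genes, so these folds and counts do not set the members apart.

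Read step by step, the first step of the lineage had no called member. Intermediate progenitors, the cells between radial glia and neurons, had a summed log2 ratio over radial glia of −0.03 (−0.04 to −0.01) in wild type and −0.03 (−0.05 to −0.02) in ShhN. Of 83 and 85 members 0 were called, beside 8.53% of genes higher and 11.4% lower in wild type and 8.90% and 12.6% in ShhN. The next step, migrating neurons over intermediate progenitors, had a sum of −0.19 (−0.20 to −0.18) in wild type with 1 of 83 members higher and 3 lower, beside 13.3% and 10.9% of all genes. In ShhN it was −0.06 (−0.07 to −0.05) with 0 of 84 higher and 1 lower, beside 13.7% and 12.5%.

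The members called in wild type at that step were Ndufc2, with −0.78 (−0.88 to −0.69), Atp5g2, with −0.71 (−0.80 to −0.61), Ndufa12, with −0.58 (−0.72 to −0.44), and Ndufaf5, with 1.05 (0.54 to 1.59). In ShhN it was Atp5g2, at 422 CPM in migrating neurons and 601 in intermediate progenitors, with −0.51 (−0.59 to −0.44). The largest cluster of each of these classes differed between the libraries: 41.8% of wild type migrating neurons lay in cluster 2 and 40.1% of ShhN ones in cluster 4, and 47.4% of wild type intermediate progenitors lay in cluster 12 and 31.2% of ShhN ones in cluster 9. Of intermediate progenitors 18.3% were dividing in wild type and 52.1% in ShhN, and of migrating neurons 2.13% and 12%. The part of these differences in the results was not tested.

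Deep layer neurons, which project mainly below the cortex, were set against upper layer neurons in a comparison added after the data were seen. The summed ratio was −0.03 (−0.04 to −0.02) in wild type and −0.07 (−0.07 to −0.06) in ShhN. In each library 3 of 84 members were lower and 0 higher, beside 7.75% lower and 9.47% higher over all genes in wild type and 8.92% and 9.12% in ShhN. The same 3 members were called in both, an overlap that was not counted over all genes. Ndufa9, an accessory subunit near the ubiquinone site of complex I, was at 57.1 against 85.9 CPM in wild type, a ratio of −0.59 (−0.78 to −0.40), and at −0.73 (−0.91 to −0.55) in ShhN. Ndufs1, the largest core subunit, was at −0.57 (−0.86 to −0.29) and −0.66 (−0.93 to −0.39), and Ndufaf5 at −0.54 (−0.78 to −0.30) and −0.55 (−0.79 to −0.30).

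GABAergic interneurons reach the cortex from the ventral forebrain and do not descend from cortical radial glia. Against radial glia their summed ratio was −0.12 (−0.14 to −0.10) in wild type and −0.01 (−0.03 to 0.00) in ShhN. In wild type 4 of 83 members were higher and 11 lower, beside 20.1% and 22.0% of all genes; in ShhN 1 was higher and 6 lower, beside 15.0% and 18.1%. Cox5a, a subunit of complex IV, was called higher in both. It stood at 909 CPM in wild type interneurons against 478 in radial glia, a ratio of 0.93 (0.81 to 1.05), and at 789 against 483 CPM in ShhN, a ratio of 0.71 (0.60 to 0.81). In the 5 excitatory classes it kept between 440 and 544 CPM in wild type and between 470 and 634 in ShhN, below the interneurons in each library.

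Ndufa5, Ndufa8 and Ndufaf5 were also called higher in wild type interneurons, at 0.62 (0.44 to 0.80), 0.58 (0.38 to 0.80) and 0.98 (0.32 to 1.71). In ShhN Ndufa5 was at 0.21 and Ndufa8 at 0.33, neither past the rule. Ndufaf5 was not called in ShhN either, with 29.7 CPM in interneurons against 31.9 CPM in those of wild type. The comparison shares its radial glia with that of upper layer neurons. Among the lower members Ndufc2 was at −1.02 (−1.15 to −0.90) and −0.71 (−0.82 to −0.59), Ndufs8 at −0.92 (−1.19 to −0.65) and −0.92 (−1.17 to −0.67), and Ndufa12 at −0.78 (−0.95 to −0.61) and −0.61 (−0.76 to −0.46). Sdhd was at −0.93 (−1.24 to −0.61) and −0.55 (−0.84 to −0.27). Of the interneuron class 1.01% of wild type and 27.1% of ShhN cells were dividing, its radial glia markers summed to 400 and 1078 CPM, and 74.8% and 47.1% of it lay in cluster 8. The part of these values in the differences was not tested.

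The ShhN library was compared with wild type class by class. In radial glia the module was level, with a summed log2 ratio of 0.01 (−0.01 to 0.03) and 1 of 83 members lower, 0 higher, beside 2.84% and 1.92% of all genes. The member called was Ndufaf7, which methylates a core subunit of complex I, on 30 and 36 UMIs (12.5 against 25.2 CPM), with −1.01 (−1.76 to −0.27); it was not called in most of the other settings tried. In intermediate progenitors the sum was at 0.00 (−0.01 to 0.02). In the neuronal classes it was above 0: 0.14 (0.13 to 0.15) in migrating, 0.10 (0.09 to 0.11) in upper layer and 0.06 (0.05 to 0.07) in deep layer neurons, and 0.12 (0.11 to 0.13) in interneurons.

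No member was called in upper layer neurons, with 0 of 84 in either direction beside 0.719% of all genes higher and 1.99% lower. Above 0 lay 67 of 84 members, and the sign was not counted over all genes. With TMM scaling, which adds 0.07 here, the sum was 0.17. The median member was at 0.07 and the median gene at −0.07. The highest ratio, 0.70 (−0.05 to 1.48), was that of Atp5s on 42 and 25 UMIs, and its interval holds 0. Next came Ndufb6, with 0.29 (0.16 to 0.41), and Atp5k, with 0.26 (0.18 to 0.33); the 3 were named after their values were seen. In migrating neurons 72 of 84 members lay above 0, with a median of 0.12 against −0.07 over all genes. Here too the sign was not counted over all genes. By complex, the sums in upper layer neurons were 0.07 for complex I, −0.05 for II (above 0 with the TMM shift), 0.11 for III, 0.13 (0.11 to 0.15) for IV and 0.12 for V.

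Other values also differed between the libraries, not all in the same classes or direction. In the free RNA the members made up 2.42% of UMIs in wild type and 2.75% in ShhN, the same direction as in the neurons. In upper layer neurons cytoplasmic ribosomal proteins were at a summed ratio of 0.13 and the mitochondrially encoded subunits at −0.09, while radial glia had 0.14 for ribosomal proteins. By cluster, 27.5% of wild type upper layer neurons lay in cluster 10 and 27.1% of ShhN ones in cluster 1. Of migrating neurons, 41.8% of wild type ones lay in cluster 2 and 40.1% of ShhN ones in cluster 4. Cluster 4 held 80 wild type and 1012 ShhN cells in all. Of interneurons 1.01% were dividing in wild type and 27.1% in ShhN. The part of these values in the differences of the neuronal classes was not tested, and library and treatment cannot be told apart.

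**Figure D5:**
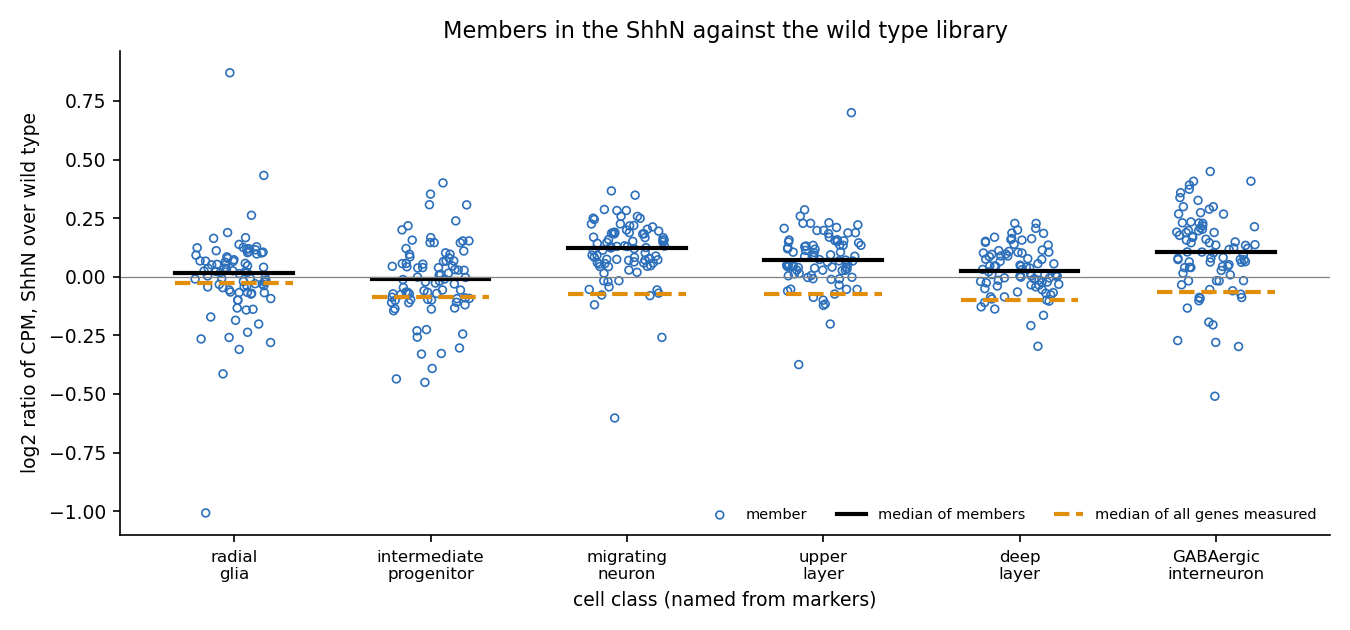
Log2 ratio of ShhN over wild type (vertical axis) for each measured member in 6 cell classes; black bars mark the median member and orange dashes the median of all genes measured. The median member lies at 0.02 in radial glia, where the median gene is at −0.03, and at 0.12 in migrating neurons, where the median gene is at −0.07.

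Over all cells together 2 of 88 members were lower in ShhN and 0 higher, beside 6.81% and 5.07% of all genes. These were Cox4i2, with 68 against 123 UMIs and a log2 ratio of −1.15 (−1.60 to −0.71), and Ndufa4l2, with 183 against 263 UMIs and −0.82 (−1.10 to −0.54). Both are the mural isoforms above, and the ShhN library held 15 mural cells where wild type held 31. Within mural cells both were at a higher CPM in ShhN, 512 against 341 for Cox4i2 and 1320 against 900 for Ndufa4l2.

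Genes around the respiratory chain were counted by fixed lists in the comparison of upper layer neurons with radial glia. Each count stands beside 20.7% of all genes lower and 18.7% higher in wild type, and 25.4% and 20.6% in ShhN. Each median stands beside −0.03 and −0.07. Counts lower that are near those shares, as for the import list and the cytoplasmic ribosomal proteins, are no result about the list. The counts higher of these lists, given below, were under the shares of all genes. Glycolysis, which splits glucose in the cytoplasm, had 4 of 16 measured genes higher and 10 lower in wild type, and 4 and 11 in ShhN, with medians of −0.65 and −0.92; the list holds Aldoc, which is also a radial glia marker. The 4 higher were the same in both: Eno2, Ldhb, Hk1 and Pfkm. Several are paired isoforms. Ldha, the lactate dehydrogenase subunit tied to lactate production, was at 190 against 536 CPM in wild type, a ratio of −1.50 (−1.63 to −1.37), whereas Ldhb was at 419 against 258 CPM, a ratio of 0.70 (0.54 to 0.86). Hk1, the brain hexokinase, was at 2.12 (1.40 to 2.95) and Hk2 at −3.58 (−4.24 to −2.95). In ShhN Ldha was at −1.45, Ldhb at 0.65, Hk1 at 1.99 and Hk2 at −3.49.

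The citric acid cycle list had 0 of 18 genes higher and 7 lower in wild type and 5 in ShhN, with medians of −0.39 and −0.26, among them Idh2 at −1.13 and −1.47. The 13 mitochondrially encoded subunits had a median of 0.32 in each library. Only 1 was called in each, mt-Nd6 in wild type and mt-Nd4l in ShhN, and mt-Co1 was at 0.41 and 0.42 and mt-Cytb at 0.47 and 0.42. Mitochondrial ribosomal proteins, which translate those RNAs, had 2 of 76 higher and 24 lower in each library, with medians of −0.39 and −0.37. Cytoplasmic ribosomal proteins had 0 of 95 higher and 22 and 27 lower.

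Assembly factors and carriers outside the members had 1 of 32 genes higher and 2 lower in wild type and 4 of 33 higher and 1 lower in ShhN. Atpif1, the inhibitor of the ATP synthase, was higher in both, at 1282 against 711 CPM and 0.85 (0.76 to 0.94) in wild type and at 0.88 in ShhN. Among 8 measured regulators of mitochondrial biogenesis Esrra was higher, at 1.70 (0.83 to 2.73) and 1.69. Nrf1 was lower, at −0.87 and −1.06, as was Tfam, which packages mitochondrial DNA, at −0.87 and −1.27. In the import and exchange list 1 of 19 was higher and 4 lower in each library. Slc25a5, an exchanger of ADP and ATP known from proliferating cells, was at 323 against 1098 CPM in wild type, a ratio of −1.76, and at −2.06 in ShhN. Its paralogue Slc25a4, the form of heart, muscle and brain, was at 0.34 and 0.62. The hypoxia list had 0 of 9 higher and 4 lower in each.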

How the data were processed

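Per the labels' protocols, E16.5 cortices were dissociated and sequenced with 10x Genomics droplets. The counts deposited by the authors are raw UMIs per gene and barcode, 1 matrix per group, with no normalization. The submitters' processing notes name mm10, Seurat 3, StringTie and Cell Ranger; how reads matching several genes were counted is not given in the sources used here. The matrix with the control prefix was taken as wild type and the experimental one as ShhN, from the sample titles.

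Cells were barcodes with at least 2300 UMIs, at least 800 genes and at most 10% mitochondrial UMIs, less scrublet doublets (280 and 246 barcodes) at an expected 6%, in scanpy 1.11.5. A cell took the class with the highest mean scaled marker score if at least 3 markers were detected and the lead was at least 0.25; the rule was set after marker detection rates were seen, without member values, and a study's own class names may differ. Clusters are Leiden clusters at resolution 1 (leidenalg 0.10.2).

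UMIs were summed per class. Intervals for ratios are exact conditional binomial and for levels exact Poisson (scipy 1.17.1). Named are the 3 members with most UMIs per complex and all isoforms with at least 50 UMIs. The 5 highest and 5 lowest called members per comparison are named too, but fewer of the lower ones for interneurons over radial glia. Uqcr10, Ndufaf1, Ndufaf7 and the genes of the other lists were named after their values were seen. The members and lists were chosen with earlier results of these data known. Of the members 28 overlap a gene on the opposite strand and 4 share an exon with another protein-coding gene on the same strand (GENCODE M21); among those named these are Atp5l, Cox4i1, Cox5a, Cox6c, Ndufa2, Ndufa4l2, Ndufa9, Ndufaf2, Ndufaf3, Ndufb6, Ndufb11 and Ndufs1, all on the opposite strand, so their counts are uncertain where strand was not used. TMM factors came from edgeR 4.0.16. The ratio scripts were tested on simulated data.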

Additional observations from a re-analysis of the deposited data

How the results depend on the processing

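With 1 library per group nothing could be left out in turn, and what the intervals cover is counting error alone. No paired analysis was possible because the cells of a matrix could not be traced to its 4 samples. Under 14 alternatives none of the 4 summed ratios over all members was counted as reversed. A reversal was counted only where the main interval left out 0. That of ShhN over wild type in radial glia, −0.01 to 0.03, holds 0, so it could not be counted. The 14 named results for single members (193 values) kept their direction. These members were the most extreme calls on the same cells, so this is no independent check. Alternatives that change only the minimum UMIs per gene or the size rule leave the ratios as they were. The sums by complex were set only against the TMM shift, which takes complex IV in ShhN upper layer neurons over radial glia and complex II in ShhN over wild type upper layer neurons above 0. The marker lead of 0.5 and the removal of dividing cells were added after the data were seen. The cause of the shifts below was not tested.

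The summed ratio of upper layer neurons over radial glia in wild type (−0.22) was −0.25 with Leiden clusters, −0.16 with TMM, −0.20 with at least 4500 UMIs per cell, −0.26 with equal weight per cell, −0.25 with a lead of 0.5 and −0.32 scaled without mitochondrial, ribosomal and globin UMIs. In ShhN (−0.13) it was −0.16 with Leiden, −0.04 with TMM, −0.15 without dividing cells, −0.16 with equal weight, −0.17 with the lead of 0.5 and −0.22 scaled without those UMIs. ShhN over wild type in radial glia (0.01) was 0.04 with TMM, 0.03 without dividing cells and 0.03 scaled without those UMIs; in upper layer neurons (0.10) it was 0.09 with Leiden, 0.17 with TMM and 0.12 scaled.

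For members called in wild type upper layer neurons, the 13 lower became 5 without dividing cells, which leaves 77 radial glia, and 1 at a size of log2 1. The 1 higher became 2 with Leiden, TMM, at least 4500 UMIs, a 5% mitochondrial limit, free RNA subtracted, the lead of 0.5 and thinned cells, and 3 with equal weight. In ShhN the 11 lower became 7 without dividing cells and 0 at a size of log2 1, and the 2 higher became 1 at that size and with thinned cells. In radial glia the 1 member lower in ShhN became 0 with Leiden, TMM, at least 200 UMIs per gene, at least 4500 per cell, the 5% limit, no dividing cells, doublets kept, equal weight, the lead of 0.5, scaling without those UMIs, the size of log2 1 and thinned cells, and 1 became higher with equal weight.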
